A study of Mus musculus with 8 samples.

Results

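Histamine and mast cell genes were followed in 8 MC38 tumors by bulk RNA sequencing, 10 in all: Hdc, the 7 mast cell genes Cma1, Mcpt4, Tpsb2, Cpa3, Kit, Fcer1a and Ms4a2, and the histamine genes Hnmt and Hrh2. They were picked by name from the 24421 genes of the count table, and all 10 were present. Hdc was chosen by its own difference between photoconverted and control tumors in these samples, so that difference is described here and carries no test. The other 9 were selected on what they are known to do, but with earlier results of these data already known. The question put to them was whether Hdc follows mast cell genes from tumor to tumor.

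MC38 is a mouse colon adenocarcinoma line, and 250000 MC38 cells were injected into each female, 9-week-old Kaede mouse on the C57BL/6 (B6) background. Kaede is a transgenic fluorescent protein that turns from green to red in violet light, and every tumor, control tumors included, grew in a Kaede host. The 4 photoconverted tumors were illuminated through the skin on day 10 with 405-nm light for 3 min and collected 5 h later. The 4 control tumors received no light. The labels describe separate tumors in each group, so the spread given below is between tumors. MC38 was implanted under the skin, and each library holds the RNA of the cancer cells and of every host cell in the tumor. In such bulk samples, fewer cells of a type and less RNA per cell cannot be told apart.

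Mast cells are tissue-resident granulocytes that store histamine with proteases in granules and release both when IgE bound to its high-affinity receptor is cross-linked. Histamine is made from histidine by a single enzyme, histidine decarboxylase, which Hdc encodes. Basophils also make it, and in mice immature myeloid cells and neutrophils can express Hdc as well, so the transcript alone does not name a cell type. Skin mast cells of the connective tissue type carry chymases and tryptases in their granules and depend on the receptor Kit.

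Values are in CPM, raw counts scaled to a common library size with TMM factors. The libraries held between 12576615 and 35844417 counts. The share of counts on Rn45s, the precursor of ribosomal RNA, was between 2.70% and 9.65% in 5 tumors. It was 21.9% in photoconverted tumor 4, 35.7% in control tumor 2 and 23.2% in control tumor 4, which also had the lowest totals. These 3 libraries stand apart. Fold changes are given with and without them, but no r with Hdc was computed over the 5 other tumors. At these depths 3 counts, the limit that a count of 0 allows, were worth between 0.0751 and 0.321 CPM. This limit and the intervals below cover counting error only.

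Hdc lies on the minus strand of chromosome 2 (GRCm38, chr2:126593667-126619299). Photoconverted tumors 1 to 4 had 19.0, 23.9, 24.9 and 15.3 CPM of Hdc, from 760, 758, 631 and 224 counts. Control tumors 1 to 4 had 9.65, 9.85, 9.42 and 12.1 CPM, from 338, 92, 265 and 199 counts. The lowest photoconverted tumor, number 4, lay above the highest control tumor, also number 4, so the groups did not overlap. In the deposited normalized table the same tumors had 428.75, 542.09, 562.4 and 347.91 against 218.7, 221.41, 213.29 and 274.94, in the same order. The mean was 20.8 ± 4.46 CPM (SD, n = 4) in photoconverted and 10.3 ± 1.27 CPM (SD, n = 4) in control tumors, a log2 fold change of 1.02 (SE 0.19, edgeR). Among the 5 tumors with a low Rn45s share the log2 fold change was 1.24. Of 14468 genes tested, 0.684% had every photoconverted tumor above every control tumor and 0.643% had every one below. Since this contrast chose Hdc, nothing is read from its place among them.

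**Figure D1:**
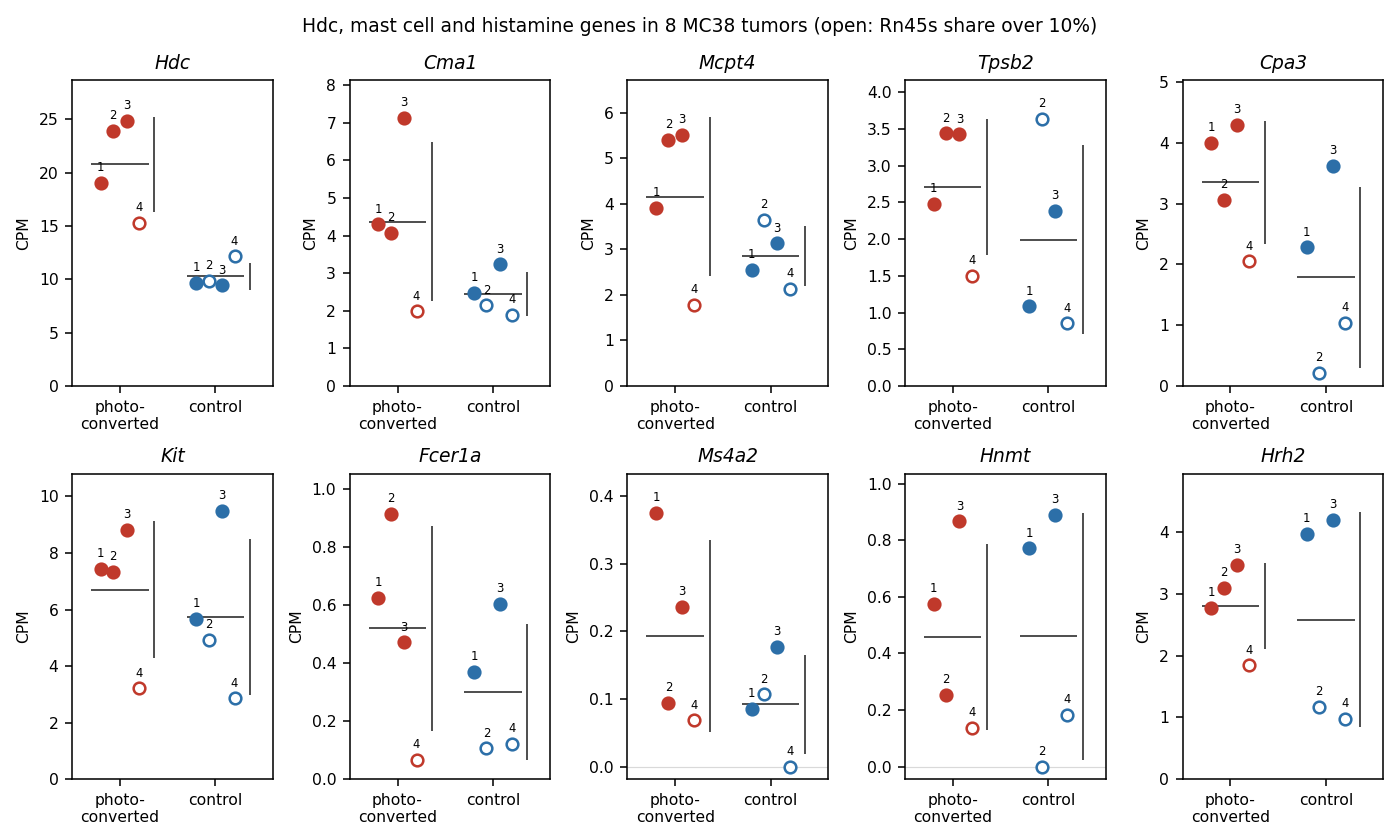
CPM of the 10 genes (y axis, from 0, a scale for each gene) in photoconverted (red) and control (blue) tumors, with replicate numbers beside the points. Horizontal lines are means, vertical lines are 1 SD to either side (n = 4), and open points are the 3 libraries with an Rn45s share over 10%. Only in the Hdc panel do the groups not overlap, and photoconverted tumor 4 is the lowest red point in all 10 panels.

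Among the 7 mast cell members the granule proteases were the most abundant for their length. Mcpt4 and Cma1 encode chymases, Tpsb2 a tryptase, and Cpa3 the carboxypeptidase of mast cell granules. Mcpt4 and Cma1 lie 114953 bases apart in one protease cluster on the minus strand of chromosome 14 (Cma1 chr14:55941451-55944675, Mcpt4 chr14:56059629-56062313). Cma1 stood at 4.30, 4.07, 7.13 and 1.98 CPM in photoconverted tumors 1 to 4 and at 2.48, 2.14, 3.23 and 1.89 CPM in control tumors 1 to 4. Photoconverted tumors 1 to 3 lay above every control tumor, whereas photoconverted tumor 4 lay among them. The log2 fold change of Cma1 was 0.84 (SE 0.37).

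Mcpt4 had 3.90, 5.40, 5.52 and 1.78 CPM in photoconverted tumors and 2.54, 3.64, 3.13 and 2.14 CPM in control tumors, each in the order 1 to 4. Here photoconverted tumor 4 was the lowest of all 8, and the log2 fold change was 0.56 (SE 0.35). Tpsb2, on the plus strand of chromosome 17 (chr17:25366305-25369098), had 2.48, 3.44, 3.43 and 1.50 CPM against 1.09, 3.64, 2.38 and 0.855 CPM. Its highest value was in control tumor 2, and the log2 fold change was 0.51 (SE 0.47). Tpsab1, a related tryptase gene, had at most 0.411 CPM. How the counting treated reads that fit more than 1 gene is not stated. Cpa3, on the minus strand of chromosome 3 (chr3:20215620-20242181), had 4.00, 3.06, 4.29 and 2.05 CPM against 2.28, 0.214, 3.63 and 1.04 CPM. The value of control tumor 2 rested on 2 counts, below the limit of 3, and the groups overlapped through control tumors 1 and 3. The log2 fold change of Cpa3 was 0.83 (SE 0.57). The annotated microRNA gene Mir7007 lies within Cpa3 on the same strand.

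The receptors were lower for their length. Kit, the stem cell factor receptor that mast cells need to survive and that melanocytes also carry (plus strand, chr5:75574916-75656722), had 7.43, 7.33, 8.82 and 3.21 CPM in photoconverted and 5.68, 4.92, 9.49 and 2.87 CPM in control tumors. Control tumor 3 was the highest of all 8, and the log2 fold change was 0.22 (SE 0.39). Fcer1a, the IgE-binding chain of the high-affinity IgE receptor (minus strand, chr1:173221284-173227214), had 25, 29, 12 and 1 counts against 13, 1, 17 and 2 counts. In CPM these were 0.625, 0.916, 0.473 and 0.0683 against 0.371, 0.107, 0.604 and 0.122, a log2 fold change of 0.69 (SE 0.65). The libraries with the high Rn45s share held at most 2 counts each. Ms4a2, the beta chain of the same receptor (minus strand, chr19:11615523-11623719), had 15, 3, 6 and 1 counts against 3, 1, 5 and 0 counts. With 34 counts over all tumors it was not tested, and the 0 counts of control tumor 4 allow up to 0.183 CPM.

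The breakdown and receptor genes of histamine did not share the pattern of Hdc. Hnmt, which inactivates histamine by methylation inside cells (minus strand, chr2:24002910-24049394), had 23, 8, 22 and 2 counts in photoconverted and 27, 0, 25 and 3 counts in control tumors. Photoconverted tumor 2, second highest for Hdc, was second lowest of its group for Hnmt, and the 0 of control tumor 2 allows up to 0.321 CPM. The log2 fold change of Hnmt was -0.16 (SE 0.73). Hrh2, a Gs-coupled histamine receptor (plus strand, chr13:54192129-54236180, with the annotated gene Gm16578 on the opposite strand), had 2.78, 3.09, 3.47 and 1.85 CPM against 3.97, 1.18, 4.19 and 0.977 CPM. Its control tumors spread wider than its photoconverted tumors, on both sides of them, and the log2 fold change was 0.08 (SE 0.47).

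Per kilobase of exon, the mean level over 8 tumors ran from Mcpt4 at 3.16 (SD 1.26) and Cma1 at 3.12 (SD 1.62) through Hdc at 2.43 (SD 1.00), Cpa3 at 1.70 (SD 0.953) and Tpsb2 at 1.48 (SD 0.695) CPM per kb. Below these came Kit at 0.698 (SD 0.276), Hrh2 at 0.453 (SD 0.207), Fcer1a at 0.412 (SD 0.302), Hnmt at 0.260 (SD 0.202) and Ms4a2 at 0.0509 (SD 0.0418) CPM per kb. The steps from Tpsb2 to Kit and from Hnmt to Ms4a2 exceeded 1 SD of both genes, with the former gene higher in 8 and 7 of 8 tumors. The other neighbours in this order lay within 1 SD of each other. Hdc was thus of the same order as the 4 protease genes in length-scaled level. The length used was the union of the annotated exons of all transcripts of a gene, 6389 bases for Hdc and 1108 for Mcpt4. The order depends on that choice, and the transcripts in use were not measured.

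Of the 10 genes, 9 passed the expression filter and were tested. Their log2 fold change between photoconverted and control tumors was above 0 for 8 of 9, with a median of 0.56, or 0.53 without Hdc. Over all 14468 genes tested the median was -0.01 and 46.8% lay above 0. No member passed an adjusted p of 0.05 in edgeR's quasi-likelihood test (adjusted p 0.999 for each of the 8 other than Hdc), and neither did any other gene (0.00% called). At an unadjusted p under 0.05 stood 1 of the 8 members other than Hdc, Cma1, beside 2.23% of all genes. DESeq2's Wald test called 24 genes (0.141% of 17005) and no member other than Hdc, from which nothing is read because this contrast chose it. The shared replicate numbers were taken to pair the tumors, although no label states a pairing. By CPM, Hdc, Cma1 and Cpa3 were each higher in the photoconverted tumor of a number than in its control in 4 of 4 pairs. That held in 3 of 4 pairs for Mcpt4, Tpsb2, Kit and Ms4a2, in 2 for Fcer1a and Hrh2, and in 1 for Hnmt. With the replicate number as a block, edgeR gave Cma1 a log2 fold change of 0.77 (quasi-likelihood p 0.0115, adjusted 0.707). Cpa3 had 1.04 (p 0.0372 by the same test, adjusted 0.808). Besides Hdc, no other member stood at an unadjusted p under 0.05 in that fit, where 869 of 14468 genes did.

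Over the 5 tumors with a low Rn45s share the log2 fold change was 0.85 for Cma1 (SE 0.31), 0.80 for Mcpt4 (SE 0.24), 0.85 for Tpsb2 (SE 0.37), 0.36 for Cpa3 (SE 0.28) and 0.48 for Fcer1a (SE 0.45). It was 0.05 for Kit (SE 0.23), -0.57 for Hnmt (SE 0.50) and -0.39 for Hrh2 (SE 0.21). None of these 8 passed an adjusted p of 0.05 in edgeR. Cpa3, Kit, Tpsb2 and Hnmt thus moved by more than 1.5 times and Hrh2 turned its sign. The values also moved with single tumors, from 0.50 to 1.06 for Cma1, 0.40 to 0.79 for Mcpt4, 0.26 to 0.91 for Tpsb2, 0.52 to 1.39 for Cpa3 and 0.31 to 1.21 for Fcer1a when each tumor was left out in turn.

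The 3 libraries with the high Rn45s share were low for most of the members. All 3 lay below the 5 other tumors for 6 of the 9 tested members, namely Cma1, Cpa3, Kit, Fcer1a, Hnmt and Hrh2. Over all genes tested, 21.0% did so. For Kit the 3 libraries ranged from 2.87 to 4.92 CPM and the 5 others from 5.68 to 9.49 CPM. Hdc did not split this way, with 9.85 to 15.3 CPM in the 3 libraries and 9.42 to 24.9 CPM in the 5 others. The part of RNA composition in the values of single members was not tested beyond the fits with the Rn45s share.

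The promoters of 5 of the genes are shown, that of Hdc and those in which a GATA match, described below, was found. Each is the 250 bases before a RefSeq transcription start (GRCm38.p6), written on the coding strand, which is the minus strand for all 5. Capitals mark matches, on either strand, to the letters of a GATA site (AGATAA or TGATAA), bound by factors of the family of Gata2, which mast cells need, or of an E-box (CATGTG). Promoters were found for 9 of the 10 genes (11 promoters), the exception being Tpsb2. The windows are chr2:126618679-126618928 for Hdc, chr14:56062311-56062560 for Mcpt4, chr3:20242182-20242431 for Cpa3, chr1:173227230-173227479 for Fcer1a and chr19:11623720-11623969 for Ms4a2.
Hdc: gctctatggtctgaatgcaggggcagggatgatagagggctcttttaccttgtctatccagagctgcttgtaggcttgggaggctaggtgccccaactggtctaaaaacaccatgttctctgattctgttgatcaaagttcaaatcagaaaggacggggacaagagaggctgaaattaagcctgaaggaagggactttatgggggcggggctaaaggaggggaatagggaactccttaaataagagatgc
Mcpt4: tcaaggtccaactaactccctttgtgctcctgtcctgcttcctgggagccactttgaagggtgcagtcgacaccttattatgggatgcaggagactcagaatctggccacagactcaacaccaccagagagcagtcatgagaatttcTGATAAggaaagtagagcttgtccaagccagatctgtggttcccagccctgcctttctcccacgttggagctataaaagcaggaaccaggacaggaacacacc
Cpa3: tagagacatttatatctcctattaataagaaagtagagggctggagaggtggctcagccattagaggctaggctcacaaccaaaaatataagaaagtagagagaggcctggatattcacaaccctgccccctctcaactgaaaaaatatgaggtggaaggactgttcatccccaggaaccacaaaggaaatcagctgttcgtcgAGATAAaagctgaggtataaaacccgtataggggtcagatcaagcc
Fcer1a: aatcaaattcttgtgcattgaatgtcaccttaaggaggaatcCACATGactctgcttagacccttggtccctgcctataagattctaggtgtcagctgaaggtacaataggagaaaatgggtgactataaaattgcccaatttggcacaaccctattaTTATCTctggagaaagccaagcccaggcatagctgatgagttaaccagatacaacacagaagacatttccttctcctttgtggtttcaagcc
Ms4a2: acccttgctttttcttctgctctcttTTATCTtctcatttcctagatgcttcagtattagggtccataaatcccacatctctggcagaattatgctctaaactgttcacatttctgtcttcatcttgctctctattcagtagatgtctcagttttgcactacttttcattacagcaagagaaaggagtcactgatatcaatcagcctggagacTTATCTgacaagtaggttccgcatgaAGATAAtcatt

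A GATA match stood in the windows of 4 of the 9 genes with a promoter, namely Mcpt4, Cpa3, Fcer1a and Ms4a2. These 4 were printed for their matches, so nothing is read from their share of the windows shown. Cpa3 had AGATAA 46 bases before the start, and Fcer1a had it 92 bases before on the opposite strand. Ms4a2 had it 224 and 37 bases before the start on the opposite strand and 11 bases before on the coding strand. Mcpt4 had TGATAA 103 bases before the start, and Fcer1a also had CATGTG 208 bases before it on the opposite strand. Of 32851 mouse promoters of this length, 9.99% held AGATAA, 7.94% TGATAA and 12.3% CATGTG on either strand. The Hdc window held neither these letters nor CACGTG (6.02% of promoters), the cAMP response element TGACGTCA (1.55%) or the AP-1 site TGANTCA (6.75%). Cma1, Kit, Hnmt and Hrh2 likewise held none of the 6. The Hdc start used by RefSeq lies 621 bases inside the end of the GENCODE gene, so a further annotated start lies upstream of this window, which no annotated exon overlaps. A match is letters in a window, and binding was not measured in these tumors.

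Whether Hdc followed the mast cell genes was asked by correlating log2 CPM over the 8 tumors, with exact permutation tests over all 40320 orders and Benjamini-Hochberg adjustment over the 14467 other genes tested. The pooled r includes the difference between the groups on which Hdc was chosen. It was therefore computed again from the deviations from the group means, with tumors permuted within groups (576 orders, smallest possible p 0.00174). In all, 8 relations were computed for the members.

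Among the 8 members Hdc had its highest r with the chymases, but no relation passed the adjustment. For Cma1, Pearson's r was 0.725 (exact permutation p 0.0448, adjusted 0.997) and Spearman's rho 0.524 (exact permutation p 0.197). Without photoconverted tumors 2 and 3, the 2 tumors farthest from the median of Hdc, r of Cma1 fell to 0.346. For Mcpt4, r was 0.606 (exact permutation p 0.119, adjusted 0.997), rho was 0.595 (exact permutation p 0.132), and r without those 2 tumors was -0.036. Both values thus fell without the 2 tumors with the most Hdc, a step that also narrows the range of Hdc. Among the other 6 tumors, control tumor 4 and photoconverted tumor 4 had more Hdc than control tumors 1 to 3. They had less Cma1, Mcpt4 and Kit. When each tumor was left out in turn, the pooled r was 0.573 to 0.821 for Cma1 and 0.452 to 0.796 for Mcpt4. With the log2 Rn45s share regressed out, the pooled r was 0.808 for Cma1 and 0.595 for Mcpt4.

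**Figure D2:**
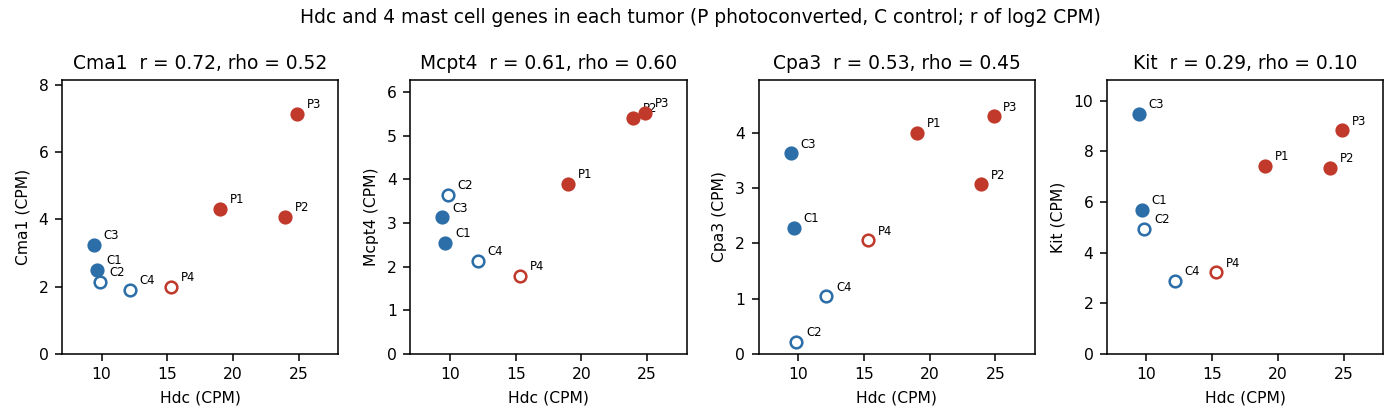
Hdc (x axis, CPM) against Cma1, Mcpt4, Cpa3 and Kit (y axes, CPM from 0) in photoconverted (P, red) and control (C, blue) tumors, open where the Rn45s share was over 10%. P3 lies at the upper right of the Cma1 and Mcpt4 panels. P2 lies beside it for Mcpt4 but below P1 for Cma1. C4 and P4 lie low on the y axis in spite of more Hdc than C1 to C3.

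The other granule genes were looser. Cpa3 had an r of 0.528 with Hdc (exact permutation p 0.171) and a rho of 0.452 (p 0.267 by the same exact test), and its r was 0.382 without the 2 farthest tumors. Tpsb2 had an r of 0.442 (exact permutation p 0.263) and a rho of 0.381 (exact permutation p 0.360), and r was -0.0046 without those 2. Among the receptors, Fcer1a had an r of 0.426 (exact permutation p 0.274, rho 0.310 with p 0.462) and Kit 0.286 (exact permutation p 0.475, rho 0.0952 with p 0.840). Without the 2 farthest tumors these were 0.0175 and -0.168. Kit thus had the lowest r with Hdc of the 6 tested mast cell genes.

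The breakdown enzyme and the receptor of histamine gave the lowest values. Hnmt had an r of 0.192 (exact permutation p 0.656) and a rho of -0.0714 (exact permutation p 0.882). Hrh2 had an r of 0.212 (exact permutation p 0.596) and a rho of -0.190 (exact permutation p 0.665). Without the 2 farthest tumors r was 0.0129 and -0.123. The sign of both depended on whether ranks or values were used.

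By count, r with Hdc was above 0 for 8 of the 8 other tested members, with a median of 0.434, and rho for 6 of 8. Over all genes, 50.4% had an r above 0 and the median was 0.0047. At an unadjusted p under 0.05 and an r above 0 stood 1 member, Cma1, and 2.38% of all genes. No gene at all passed the adjusted threshold (0.00% of genes, smallest adjusted p 0.762). Adjusted p was 0.997 for each of the 8 members by Pearson's r and 1.00 by Spearman's rho.

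Within groups, r with Hdc was 0.652 for Mcpt4 (exact permutation p 0.196), 0.575 for Cma1 (p 0.280), 0.395 for Fcer1a (p 0.455) and 0.233 for Kit (p 0.642). It was 0.196 for Tpsb2 (exact permutation p 0.601), 0.151 for Hnmt (p 0.686), 0.0777 for Cpa3 (p 0.828) and -0.0355 for Hrh2 (p 0.892). Over all 8 tumors none of these reached an unadjusted p of 0.05, against 1.06% of all genes with an r above 0, and 0.00% of genes passed the adjusted threshold. These values depended on the 2 tumors numbered 4, in opposite directions. Without photoconverted tumor 4, the lowest of its group for Hdc and for the other 9 genes, r within groups was -0.081 for Cma1, -0.020 for Mcpt4, -0.27 for Tpsb2, -0.18 for Cpa3, -0.55 for Kit, -0.43 for Fcer1a and -0.22 for Hnmt. Without control tumor 4, the highest control for Hdc, it was 0.939 for Mcpt4 (exact permutation p 0.0347), 0.812 for Cma1 (p 0.125), 0.712 for Kit (p 0.139), 0.634 for Fcer1a (p 0.194) and 0.626 for Tpsb2 (p 0.0417), with an adjusted p of 0.735 for each.

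Both tumors have a high Rn45s share. With the log2 Rn45s share regressed out, r within groups was 0.70 for Cma1, 0.66 for Mcpt4, 0.52 for Fcer1a, 0.25 for Kit, 0.22 for Hnmt, 0.20 for Tpsb2, 0.02 for Cpa3 and -0.25 for Hrh2. With the means of same-numbered pairs removed, which leaves 4 pair differences, r was 0.992 for Cma1 and 0.922 for Mcpt4 (exact permutation p 0.125 and 0.250, where 0.125 is the smallest p that 4 pairs allow). It was 0.738 for Cpa3, 0.657 for Kit, 0.627 for Tpsb2, 0.569 for Fcer1a, 0.467 for Hnmt and 0.310 for Hrh2. That fit again contains the difference between the groups.

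The mast cell genes had a higher median r with each other than with Hdc. Over the 15 pairs of the 6 tested mast cell members, r ranged from 0.036 to 0.865 with a median of 0.708, and with Hdc the 6 had a range from 0.286 to 0.725 and a median of 0.485. Within groups the medians were 0.682 and 0.314. Cma1 and Mcpt4, the neighbouring chymase genes, had an r of 0.84, Mcpt4 and Tpsb2 0.83, and Kit and Fcer1a 0.87. Tpsb2 and Cpa3 gave the lowest pair value, and control tumor 2, highest of all for Tpsb2 and lowest for Cpa3, was the tumor that set them apart. Without control tumor 2 the median over the 15 pairs was 0.846. The pairs share libraries and genes, and the 2 medians were not tested against each other. High values were not confined to pairs of mast cell genes. Cpa3 and Hnmt had an r of 0.87 and Kit and Hrh2 0.81, whereas Tpsb2 and Hnmt had -0.08. Hnmt and Hrh2, like Cma1, Cpa3, Kit and Fcer1a, were low in the 3 libraries with the high Rn45s share, and Hdc was not.

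**Figure D3:**
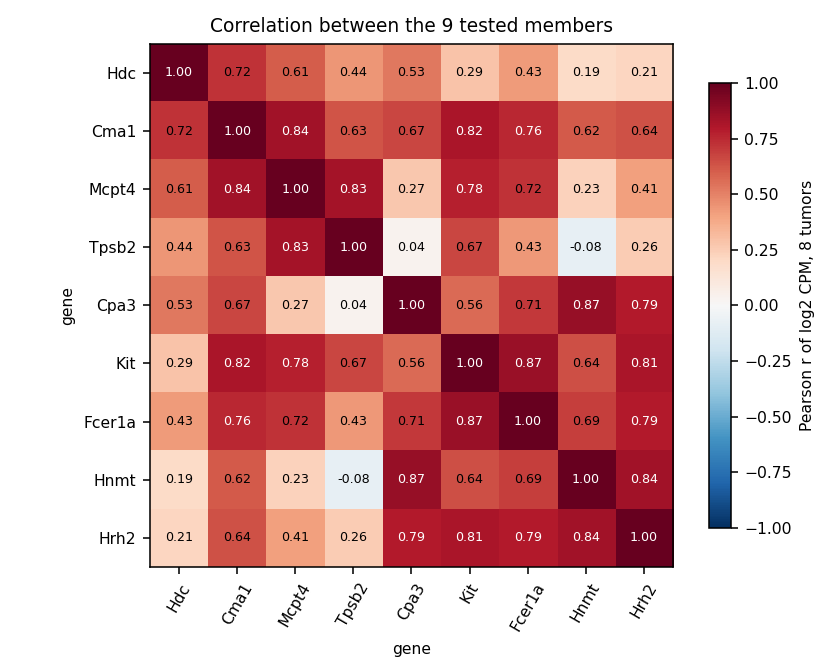
Pearson r of log2 CPM over 8 tumors for each pair of the 9 tested members (both axes are genes, colour runs from -1 to 1). The row of Hdc is paler than the block of mast cell genes below it, where Cma1 and Mcpt4 reach 0.84 and Kit and Fcer1a 0.87. Outside that block, Hnmt reaches 0.87 with Cpa3 and Hrh2 reaches 0.81 with Kit.

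Hdc was also set against the proteases in a ratio that library size does not enter. Hdc counts were divided by the summed counts of Cma1, Mcpt4, Tpsb2 and Cpa3 in the same library, with exact 95% intervals for counting error. The ratio was 1.29 (1.16 to 1.44), 1.50 (1.34 to 1.68), 1.22 (1.08 to 1.37) and 2.09 (1.66 to 2.66) in photoconverted tumors 1 to 4. In control tumors 1 to 4 it was 1.15 (0.980 to 1.35), 1.02 (0.756 to 1.38), 0.761 (0.647 to 0.896) and 2.05 (1.60 to 2.64). The 2 tumors numbered 4 had the highest ratios in both groups, and their intervals lay above those of control tumors 1 to 3. Photoconverted tumors 1 to 3 lay above control tumors 1 to 3. The means were 1.53 ± 0.396 and 1.25 ± 0.561 (SD, n = 4), and the groups overlapped through control tumor 4. By number, the photoconverted tumor had the higher ratio in 4 of 4 pairs. The intervals overlapped in the pairs numbered 1, 2 and 4, in the pair numbered 4 almost wholly. Hdc, the numerator, was chosen by its difference between the groups, so nothing is read from the direction of this ratio. The summed protease level was 14.7, 16.0, 20.4 and 7.31 CPM in photoconverted and 8.39, 9.63, 12.4 and 5.92 CPM in control tumors.

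**Figure D4:**
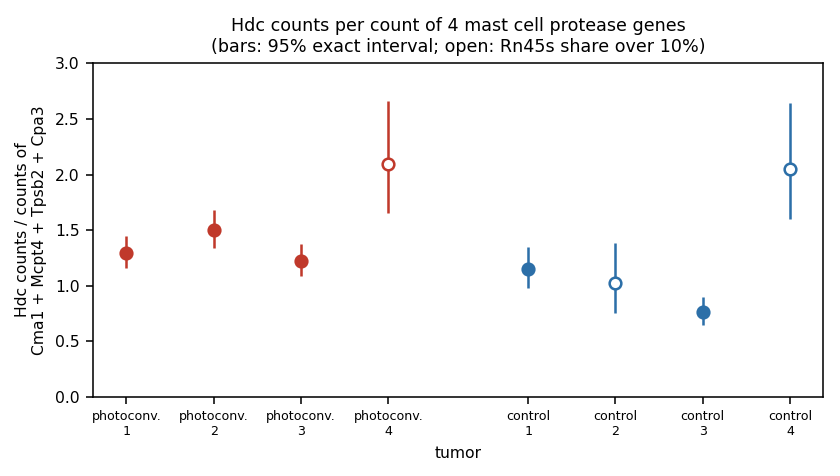
Hdc counts divided by the counts of Cma1, Mcpt4, Tpsb2 and Cpa3 together (y axis, from 0) in each tumor (x axis), red for photoconverted, blue for control and open where the Rn45s share was over 10%. Bars are exact 95% intervals for counting error, and photoconverted 4 (2.09) and control 4 (2.05) stand highest.

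Other genes of histamine handling passed no test or were too low for one. Of 14 listed histamine genes 7 were tested, and none was called. Of the 6 tested besides Hdc, 4 had a log2 fold change above 0, and their median was 0.07. Besides Hdc, the smallest p was that of Maob, a mitochondrial monoamine oxidase (log2 fold change 0.51, SE 0.57), then of Maoa (0.06, SE 0.13), which stood at 41.9 to 55.2 CPM in all tumors. Slc18a2, the transporter that loads histamine into granules, and Aoc1, the secreted diamine oxidase, were too low to test, with at most 0.535 and 0.0394 CPM. The tested genes other than Hdc had a median r with Hdc of 0.20, and r was above 0 for 6 of 6.

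Of 22 listed mast cell genes 15 were tested and none was called. The log2 fold change was above 0 for 13 of 15 (46.8% of all genes), with a median of 0.50, and 3 had an unadjusted p under 0.05 (2.23% of all genes). These were Cma1, Srgn (0.86, SE 0.36), the proteoglycan core of granules that other leukocytes also make, and Il1rl1 (0.50, SE 0.22), the IL-33 receptor. Srgn had 87.6, 87.4, 121 and 33.1 CPM in photoconverted and 59.0, 38.1, 53.1 and 30.6 CPM in control tumors, so photoconverted tumor 4 again lay among the control tumors. Il1rl1 had 239, 190, 202 and 176 CPM against 144, 94.1, 131 and 200 CPM, and its groups overlapped through control tumor 4. Its r with Hdc was 0.733 (exact permutation p 0.0374, adjusted over all genes 0.997). For the 15 genes the pooled r with Hdc had a median of 0.43 and was above 0 for 14. Within groups the median was 0.16.

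Basophil genes were close to the detection limit. The basophil markers Mcpt8, Prss34 and Cd200r3 together reached 0.316 to 0.512 CPM in photoconverted and 0.122 to 0.428 CPM in control tumors, and none could be tested. Of 14 mucosal mast cell and basophil genes 5 were tested, and Mcpt9 was at 0 in all tumors. Fcer1a, Gata2 (log2 fold change 0.11, SE 0.22), a transcription factor of mast cells and basophils, and Cebpa (-0.13, SE 0.38) had the smallest p of these 5, and none was called. The median log2 fold change was 0.03 and the median r with Hdc 0.13, with 4 of 5 above 0. With so few counts no difference in these markers was looked for.

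Neutrophil genes had the highest median r with Hdc of the lists read, a difference between lists that was not tested. Of 20 listed genes 14 were tested, the log2 fold change was above 0 for all 14 with a median of 1.32, 11 had an unadjusted p under 0.05 (2.23% of all genes did), and none was called. S100a9, a calcium-binding protein abundant in neutrophils, had 17.7, 22.4, 29.8 and 2.60 CPM in photoconverted and 3.80, 1.93, 1.96 and 4.76 CPM in control tumors. Photoconverted tumors 1 to 3 were high, and photoconverted tumor 4 fell among the control tumors, of which number 4 was the highest, as for Hdc. The r with Hdc was 0.91 for S100a9 (exact permutation p 0.00543), 0.90 for Trem1, a receptor that amplifies myeloid responses (p 0.00682), and 0.85 for the lectin receptor Clec4d (p 0.0139), and none passed adjustment over all genes (smallest adjusted p of any gene 0.762). For the 14 genes the median r was 0.80, or 0.64 within groups, and 10 had an unadjusted p under 0.05 (2.38% of all genes did, with an r above 0). The pooled r and p values hold the group difference that chose Hdc, so nothing is read from the count of 10. All the gene lists were chosen with earlier results of these data known. For that reason nothing is read from the count of 11, or from such counts in the other lists. Within groups r was above 0 for 12 of the 14. The 5 neutrophil markers S100a8, S100a9, Csf3r, Cxcr2 and Retnlg summed to 18.3 to 104 CPM in photoconverted and 15.8 to 27.6 CPM in control tumors, with none at 0. The part of neutrophil RNA in the level of Hdc was not tested.

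Genes that activated mast cells are known to induce also had high r with Hdc. Of 16 listed genes 13 were tested, the log2 fold change was above 0 for 11 (46.8% of all genes) with a median of 0.65, 6 had an unadjusted p under 0.05 (2.23% of all genes), and none was called. Many other cells of a tumor induce them too. The immediate early gene Egr1 had 149, 133, 235 and 15.2 CPM in photoconverted and 15.6, 16.9, 20.6 and 31.6 CPM in control tumors, with an r of 0.889 with Hdc (exact permutation p 0.00769). The cytokine Il6 had an r of 0.822 (exact permutation p 0.0211) and the chemokine Ccl4 0.874 (exact permutation p 0.00404). The median over the 13 genes was 0.66, or 0.32 within groups. The r and p values of Egr1, Il6 and Ccl4 are pooled and hold the group difference that chose Hdc, so nothing is read from these p values. Il4, Il13 and Csf2, cytokines that mast cells can secrete, were too low to test.

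**Figure D5:**
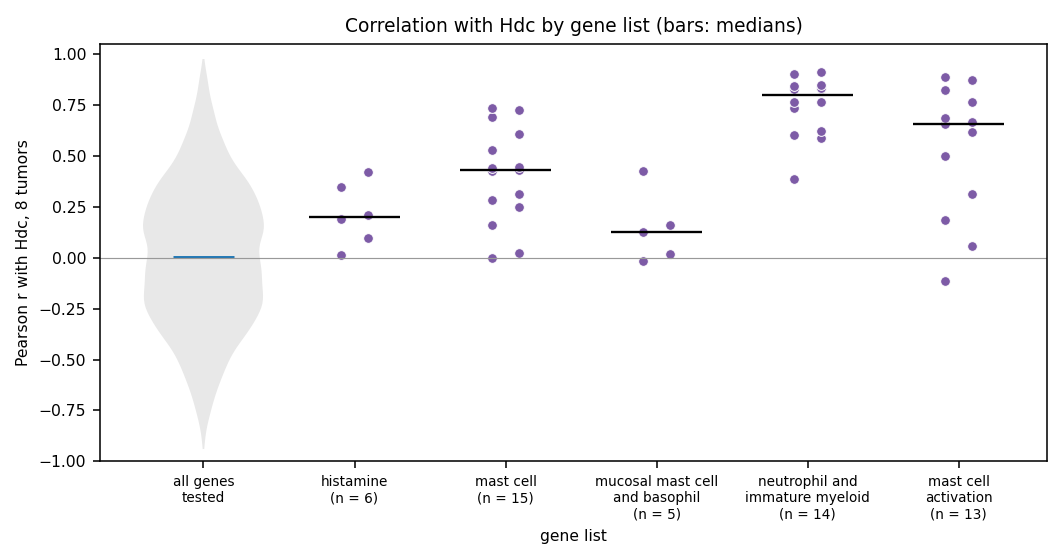
Pearson r with Hdc over 8 tumors (y axis) for each tested gene of 5 lists (points, with black bars at the medians) beside the distribution over all genes tested (grey, bar at the median). The medians are 0.20 for histamine, 0.43 for mast cell, 0.13 for mucosal mast cell and basophil, 0.80 for neutrophil and 0.66 for mast cell activation genes. Each r is pooled and holds the group difference on which Hdc was chosen.

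Markers of other cells were read for the same tumors. The 4 skeletal muscle markers Acta1, Ckm, Myh4 and Tnnt3 summed to 114 to 969 CPM in photoconverted and 115 to 303 CPM in control tumors. The 4 keratinocyte markers Krt5, Krt14, Krt1 and Krt10 summed to 1.03 to 15.7 CPM against 1.06 to 2.45 CPM, with Krt1 at 3.32 and 2.25 CPM in photoconverted tumors 2 and 3 and at most 0.107 CPM in the others. Those 2 tumors were also the highest for Hdc and Mcpt4, and the part of skin or muscle in these values was not tested. The 5 melanocyte markers summed to 0.137 to 1.29 CPM against 0.549 to 1.28 CPM, and Tyr, which defines pigment cells, was at 0 in all tumors. Eosinophil markers (5 genes) summed to 0.683 to 3.74 CPM against 0.428 to 1.88 CPM, with Epx at 0 in the photoconverted tumors. Markers of enterochromaffin-like cells and neurons (4 genes), which also express Hdc, summed to 1.03 to 2.20 CPM against 1.40 to 3.32 CPM. The 7 mast cell markers summed to 10.7 to 29.9 CPM in photoconverted and 8.91 to 22.6 CPM in control tumors, with all but Ms4a2 and Fcer1a above 1 CPM on average, so a mast cell signal was present in both groups.

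The genes whose pattern was most like that of Hdc were not mast cell genes. Ranked by r over 8 tumors they were Rrad (0.976), Thbs1 (0.971), Clic4 (0.971), Hspb1 (0.969), Map2k3 (0.957), Xirp1 (0.953), Gabpb1 (0.951), Fosl2 (0.942), Errfi1 (0.939) and Hsph1 (0.939). Rrad encodes a small GTPase, Thbs1 the matrix protein thrombospondin-1, Hspb1 and Hsph1 heat shock proteins, and Map2k3 a kinase upstream of p38. For 6 of these 10 the photoconverted tumors all lay above the control tumors (0.684% of all genes), which their choice by the pooled r with Hdc makes likely, so nothing is read from that count. By deviations from the group means the leading genes were Rrad (0.950), Ppp1r27 (0.949), Thbs1 (0.946), Syn1 (0.938), Rcan1 (0.928), Cacna1i (0.925), Nlrp12 (0.922), Crispld2 (0.920), Trim54 (0.911) and Tnk1 (0.909), and 2 genes stood in both lists. Without photoconverted tumors 2 and 3 the pooled r was 0.952 for Rrad, 0.920 for Thbs1, 0.812 for Rcan1, 0.805 for Nlrp12 and 0.330 for Crispld2. It was 0.108 for Cacna1i, 0.039 for Trim54, 0.015 for Syn1, -0.074 for Ppp1r27 and -0.337 for Tnk1. Cacna1i, Syn1, Nlrp12, Tnk1 and Ppp1r27 had only 99 to 218 counts each over all tumors. Rrad had 36.6, 39.3, 51.2 and 19.7 CPM in photoconverted and 13.0, 13.7, 12.6 and 20.6 CPM in control tumors. As for Hdc, photoconverted tumor 3 was highest and control tumor 4 was the highest of its group. Among all 14467 genes the r of Cma1 ranked at percentile 98.0, Mcpt4 at 95.4, Cpa3 at 92.8, Tpsb2 at 88.8, Fcer1a at 88.0, Kit at 76.9, Hrh2 at 69.9 and Hnmt at 67.9. These pooled values hold the group difference that chose Hdc, and by r within groups the percentiles were 97.6 for Mcpt4, 95.9 for Cma1, 89.9 for Fcer1a, 79.4 for Kit, 76.0 for Tpsb2, 71.2 for Hnmt, 62.3 for Cpa3 and 47.3 for Hrh2.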

How the data were processed

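Bulk RNA was sequenced from 8 MC38 tumors. The authors deposited 2 tables by gene symbol, one of raw read counts and one of normalized values. The deposited normalized signal was found to be each count over the DESeq2 size factor of its library, without the genes of at most 1 count in all. The submitters' processing notes name CASAVA, FastQC, Trim Galore, HISAT2, featureCounts, DESeq2 and mm10, with no versions. The sample labels name a SMARTER kit and the methods of the paper a TruSeq kit, both stranded, and the strand setting of the counting is not given in the sources used here. Total counts ranged from 12576615 to 35844417, which limits genes with few counts.

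Groups and replicate numbers came from the sample labels. Raw counts were fitted with edgeR 4.0.16 (TMM, filterByExpr, glmQLFit and glmQLFTest, R 4.3.3) with Benjamini-Hochberg adjustment over 14468 genes and a threshold of 0.05. Log2 CPM used a prior count of 2. Correlations with Hdc were computed for all genes with two-sided exact permutation tests (Python 3.11.15, NumPy 2.4.6), and ratio intervals with SciPy 1.17.1. Alternatives covered DESeq2 1.42.0, limma 3.58.1, size factors, filters, prior counts, Rn45s and leaving out each tumor. The procedures were tested on simulated data. Libraries of one group differed beyond sampling noise (smallest chi-square per degree of freedom 23.8).

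Deviations from group means correlated over genes at a mean r of 0.433 between same-numbered tumors (all 4 pairs over 0.1, lowest 0.107) and -0.134 between others. On these means the numbers, which the labels give without stating a pairing, were taken to pair the tumors. Some tumors had a higher r with another number. Photoconverted tumor 3 had 0.482 with control tumor 1 and 0.407 with control tumor 3. Control tumor 2 had 0.346 with photoconverted tumor 4 and 0.107 with photoconverted tumor 2. The part of the Rn45s share in these r was not tested.

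Genes named were the 10 members, up to 3 genes of each list with the smallest edgeR p, and the 10 genes with the highest r with Hdc, pooled and within groups. Markers and genes too low to test were named besides. The members and lists were chosen with earlier results of these data known. Exon lengths and positions are from GENCODE (GRCm38), and Acod1 was matched by its older symbol Irg1.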

Additional observations from a re-analysis of the deposited data

Results flagged for a closer look

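Control tumor 4 stood apart from the other control tumors in Hdc, at 12.1 CPM against 9.85 CPM in the nearest, a gap of 0.843 of the range of the group, above Dixon's 95% critical value. It was 1 such value among 22 groups of 4 examined, where chance gives about 1.1. The same library had an Rn45s share of 23.2%. Without it the log2 fold change of Hdc was within the range of 0.92 to 1.14 seen when each tumor was left out.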

How the results depend on the processing

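edgeR called 0 genes, DESeq2's Wald test and its shrunken fold changes 24 each, the 5 tumors with an Rn45s share under 10% 42 (edgeR), and leaving out a tumor 0 to 11, with 11 only without photoconverted tumor 4. Members called were 0, but 1 (Hdc) by DESeq2, shrunken or not, and in the 5 tumors, and 0 to 0 when a tumor was left out. Nothing is read from the calls of Hdc, here or below, because the contrast between these groups chose it. Hdc had a log2 fold change of 1.02 by DESeq2, 0.61 when shrunken, 1.24 in the 5 tumors and 0.92 to 1.14 when a tumor was left out. With the replicate number as a block, edgeR called 0 genes (869 at an unadjusted p under 0.05) and the Hdc log2 fold change was 1.00, and DESeq2's Wald test with the block, chosen after seeing the data, called 91 genes and 1 member (Hdc, 1.00). The block turned no other call. Over the tested members, Hdc included, 160 of 171 alternative fold changes kept their direction. The turned ones were Hnmt at 0.50 by limma and 0.18 by DESeq2 with the block (-0.59 to 0.26 leaving out a tumor), Hrh2 at -0.39 in the 5 tumors (-0.19 to 0.40) and Kit (-0.0047 to 0.58). Of the pooled r with Hdc, 120 of 128 kept their sign. Those that turned were Mcpt4 at -0.036, Tpsb2 at -0.0046, Kit at -0.168 and Hrh2 at -0.123 without the 2 tumors farthest from the median, rho of Hnmt (-0.0714) and Hrh2 (-0.190), and r of Hnmt when a tumor was left out (-0.148 to 0.431). Of r within groups 83 of 96 kept their sign, and leaving out a tumor gave -0.081 to 0.812 for Cma1, -0.020 to 0.939 for Mcpt4, -0.27 to 0.626 for Tpsb2, -0.18 to 0.263 for Cpa3, -0.55 to 0.712 for Kit, -0.43 to 0.634 for Fcer1a, -0.22 to 0.298 for Hnmt and -0.442 to 0.347 for Hrh2. Members correlated with Hdc past the adjusted threshold numbered 0 in every alternative. The median r among mast cell genes was 0.654 to 0.846. Fewer tumors change what each fit can show, and the cause of the turns was not tested. Fcer1a, Ms4a2 and Hnmt had 34 to 110 counts over all tumors, which limits the precision of their values.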
